A study of Mus musculus with 21 samples.

Results

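The comparison described here set the third pharyngeal arch (PA3) of mouse embryos lacking HIRE1 against the PA3 of wild-type (WT) embryos, all at E10.5. The 6 PA3 libraries, 3 per genotype, were chosen by their labels from the 21 libraries of the series. HIRE1 lies on chromosome 6 at a distance from the Hoxa cluster, whose genes it regulates, and HIRE1del embryos were homozygous for its deletion (written HIRE1del/del, and delta-E3 in the column names). The mutant line was made by genome editing in C57Bl/6J zygotes and kept on a mixed C57Bl/6J;CD1 background, and its embryos came from crosses of heterozygous parents. Arches were dissected by hand, and embryos of both sexes were pooled. The labels call the samples cranial neural crest cells, although sorting for RNA sequencing is described only for embryos with a Wnt1::Cre reporter. The 6 libraries of the second arch (PA2) of the same genotypes entered the same model and are quoted only where they show how PA3 differs.

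Pharyngeal arches are paired swellings of the embryonic head and neck, in which mesenchyme from the neural crest surrounds a core of mesoderm and an artery, with ectoderm outside and endoderm inside. Hox genes are transcription factors expressed in nested domains along the body axis. Hoxa2 is expressed from PA2 backwards, and the Hox paralogue group 3 genes, Hoxa3 among them, from PA3 backwards. PA3 contributes to the hyoid bone and the carotid arteries, and its endodermal pouch forms the thymus and the parathyroids. Hox proteins bind DNA together with TALE homeodomain partners of the Pbx and Meis families.

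The PA3 libraries held 25.81 to 30.78 M counts in WT and 27.2 to 28.8 M in HIRE1del. Levels are given as CPM, a gene's counts relative to the library total after TMM scaling (trimmed mean of M values), and they compare 1 gene between libraries, not 1 gene with another. WT replicate 1 stood apart from the other libraries in 2 respects. Its level of Ddx3y, a Y-linked gene, was 2.33 CPM against 35.6 to 61.7 CPM in the other 5, and its level of Xist, the RNA of the silenced X chromosome, was 721 CPM against 163 to 415 CPM. By genotype, Xist was at 721, 415 and 166 CPM in WT and at 163, 198 and 167 CPM in HIRE1del. WT replicates 1 and 2 thus lay above the HIRE1del range, and WT replicate 2 held the 35.6 CPM of Ddx3y. The mix of sexes was therefore not separate from genotype. WT replicate 1 also held 250 CPM of Afp, 134 CPM of Apob and 73.4 CPM of Cubn, genes known from yolk sac endoderm that were chosen here after their values were seen, against 8.64 to 35.2, 6.55 to 19.9 and 4.2 to 10.6 CPM in the other 5. These genes did not pass the test, and results are given without that library where this moves them.

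Markers of crest mesenchyme were present in every library. The summed CPM of 8 such markers, Twist1, Prrx1 and Pdgfra among them, was 716.3 to 900.8 in WT and 719.4 to 938.8 in HIRE1del. Other cell types were present too. Epithelial markers such as Epcam and Krt8 summed to 656.1 to 841.6 CPM in WT and 532.1 to 726.3 in HIRE1del, endothelial markers to 310.1 to 335.2 and 297.9 to 321.1, and markers of pharyngeal endoderm such as Foxa2 and Pax9 to 83.9 to 109.6 and 75.7 to 86.5. The globin and other red cell markers summed to 10800.5 to 21481 CPM in WT and 12815 to 21607 in HIRE1del. All of these ranges overlapped between the genotypes. Cldn5, an endothelial marker, was listed at 0 in all 6 libraries and Foxd3, a marker of early crest, was at or under 0.161 CPM. In whole arches, fewer cells of a type and less RNA per cell cannot be told apart.

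In PA3, 31 of 14383 genes (0.216%) changed in HIRE1del (edgeR quasi-likelihood model, Benjamini-Hochberg adjusted p under 0.05), 8 of them higher (0.0556%) and 23 lower (0.16%). In the Hoxa cluster, Hoxa2, Hoxa3 and 3 neighbouring transcripts fell to between 17.0 and 38.8% of WT. The orphan receptor gene Gpr50 and the first-arch transcription factor gene Pitx1 rose to 541 and 506% of WT. Most other changes were small, and 10 of the 31 genes changed by under 0.5 on the log2 scale. The 3 HIRE1del libraries lay outside the range of the 3 WT libraries for all 31. All 31 were also called by DESeq2, which called 94 genes, and by limma-voom, which called 39, but 15 of the 31 were called with the PA3 libraries alone and 21 with the Y-linked level as a covariate. The count was 11 without WT replicate 1, 10 without WT replicate 2, 14 without HIRE1del replicate 1 and 8 without HIRE1del replicate 2, and it was 15 and 19 without replicates 2 and 3 of PA2 WT. Only 8 of the 31 genes were called in each of the 6 fits that left out a PA3 library, namely Gpr50, Hoxa2, Phactr3, 5730596B20Rik, Hoxaas2, Hoxa3, Pitx1 and Zfp862-ps. In none of these fits were 12 of them called, namely Frzb, Socs2, Ptcd3, Col5a1, Ism1, Ccdc126, Lrrc61, Sspo, Hoxb3os, Plekha8, Zfp786 and Meox1. Flrt1 was called in 5, Igfbp5 in 4, Atp6v0e2 in 3, Gm15050, Tshz2, Gask1b and Cxcl12 in 2, and Zfp503, Rspo2, Filip1l and Trib2 in 1.

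**Figure D1:**
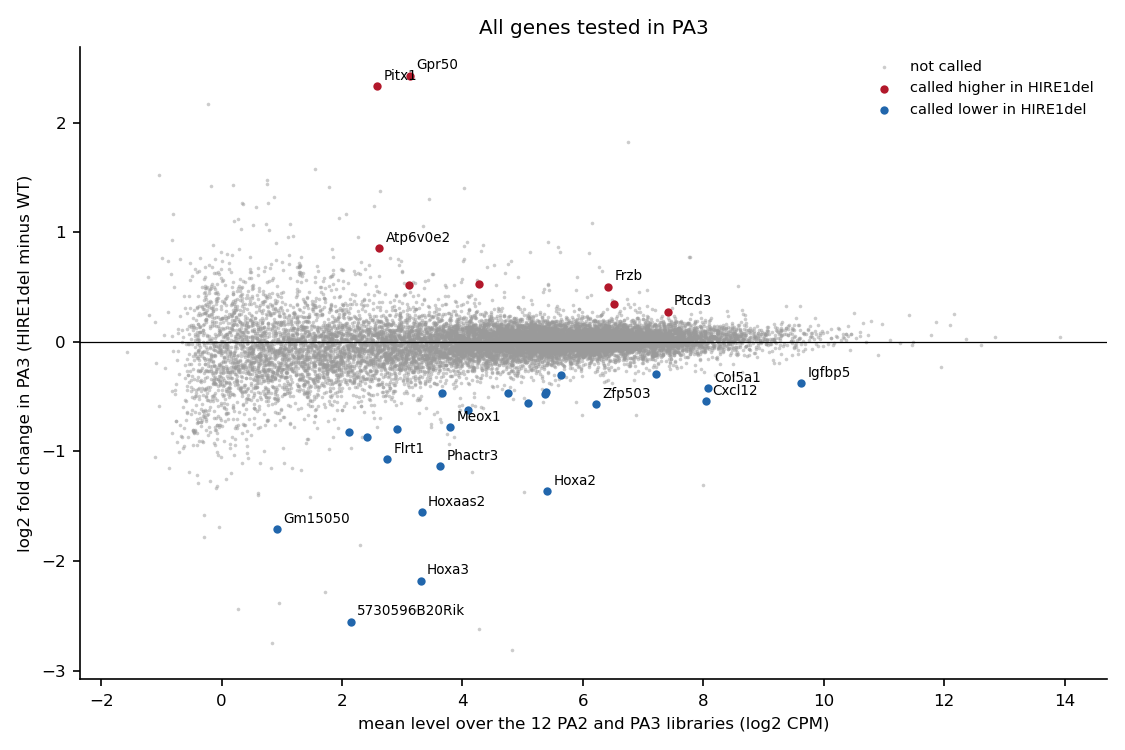
Log2 fold change in PA3 (HIRE1del minus WT) of the 14383 genes tested against their mean level in log2 CPM over the 12 PA2 and PA3 libraries. Grey points were not called, and the 8 genes called higher (red) and 23 called lower (blue) at an adjusted p under 0.05 lie on both sides of a cloud centred near 0, with Gpr50 and Pitx1 at the top and 5730596B20Rik and Hoxa3 at the bottom.

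**Figure D2:**
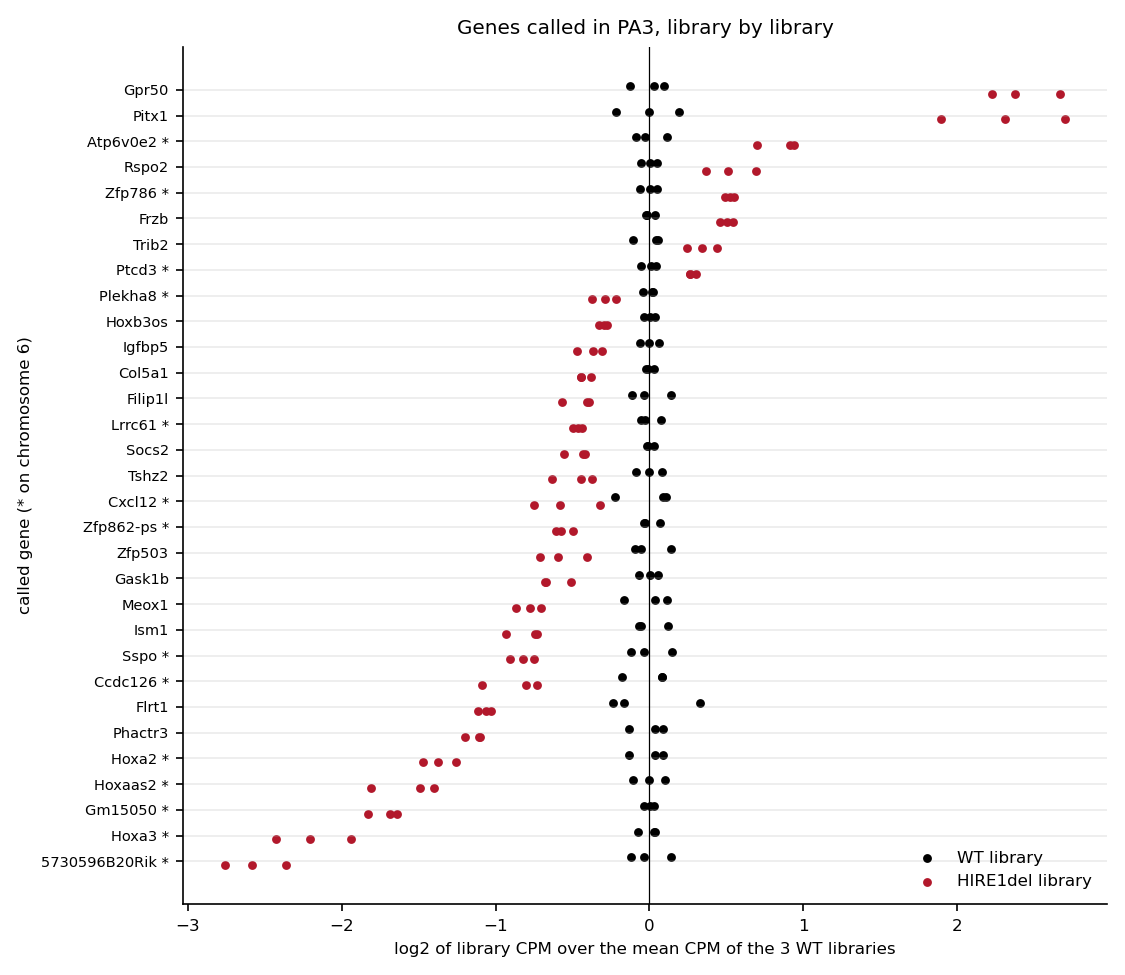
Level of each of the 31 called genes in the 6 PA3 libraries, as the log2 of the library's CPM over the mean CPM of the 3 WT libraries. Black points are WT libraries and red points HIRE1del libraries, and for each gene the red points lie outside the range of the black ones. An asterisk marks the 14 genes on chromosome 6.

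The Hox genes were considered first, as the deletion targets their regulation. The list of Hox genes and Hox noncoding transcripts had 13 tested members, of which 5 were called lower, 0 higher, and 7 were lower at an unadjusted p under 0.05. Over all genes the shares at an unadjusted p under 0.05 were 5.1% lower and 4.64% higher, which became 970 lower and 442 higher genes in place of 733 and 667 when libraries were scaled by total counts alone. The median log2 fold change of the Hox list was -0.42, beside -0.0019 over all genes tested.

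Hoxa2 (ENSMUSG00000014704, chr6:52162417-52164831, minus strand, GRCm38) was at 56.0, 62.9 and 65.1 CPM in WT and at 23.7, 25.6 and 22.1 CPM in HIRE1del. It fell by 1.36 on the log2 scale (SE 0.11, adjusted p = 5.0e-05, edgeR). The remaining level was 38.8% of WT, with the 3 mutant libraries close together.

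Hoxa3 (ENSMUSG00000079560, chr6:52169062-52213336, minus strand) stood at 29.8, 27.6 and 29.7 CPM in WT and at 6.29, 7.55 and 5.39 CPM in HIRE1del, 22.1% of WT, with a log2 fold change of -2.18 (SE 0.24, adjusted p = 0.0012, edgeR). The lowest level relative to WT belonged to 5730596B20Rik (chr6:52177498-52180851, plus strand), a transcript opposite to Hoxa3, which went from 13.5, 16.2 and 14.3 CPM to 2.1699, 2.45 and 2.85 CPM (17.0% of WT). Hoxaas2, the antisense transcript next to Hoxa2 (chr6:52165674-52169564, plus strand), fell by 1.56 (SE 0.16, adjusted p = 8.7e-04, edgeR), and Gm15050, a noncoding transcript of the cluster that is not in the list (chr6:52172881-52174059, plus strand), fell by 1.71 (SE 0.25, adjusted p = 0.012, edgeR). Hoxaas2 shares 503 exonic bases with Hoxa3 on the other strand and 5730596B20Rik shares 292. The kit named for these libraries does not mark strand while the counting was set to 1 orientation, so reads from genes that overlap on opposite strands may not have been told apart. Hotairm1, a noncoding transcript of the cluster, was at 3.98 to 4.82 CPM in WT against 1.95 to 2.62 CPM in HIRE1del and did not pass the test (adjusted p = 0.30, edgeR).

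Outside the Hoxa cluster, 1 Hox transcript was called, and it shares 2250 exonic bases with Hoxb3 and 953 with Hoxb2 on the other strand. Hoxb3os, a noncoding transcript of the Hoxb cluster on chromosome 11, was at 79.9, 81.8 and 77.8 CPM in WT and at 63.7, 66.1 and 65.0 CPM in HIRE1del, and fell by 0.30 on the log2 scale (SE 0.05, adjusted p = 0.043, edgeR). Hoxb3, a paralogue of Hoxa3, was at 49.3, 56.7 and 51.8 CPM against 40.3, 40.4 and 48.9 CPM, with ranges apart and an adjusted p of 0.31. Hoxb2 was at 31.0 to 37.5 CPM against 26.4 to 34.2 CPM, so its groups overlapped. Hoxd3, the third member of the group that was measured, was at 9.87, 12.47 and 14.6 CPM in WT and at 5.46, 5.63 and 14.4 CPM in HIRE1del, where replicate 3 was in the WT range. Without HIRE1del replicate 3 the number of Hox members lower at an unadjusted p under 0.05 was 10 and the median log2 fold change -0.95.

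The promoters of called genes were read from RefSeq (GRCm38.p6), as 250 bases before to 50 bases after each start, and searched on both strands for TGATNNAT, a Hox-Pbx site, and TGACAG, a Meis site. Entries were found for 21 of the 31 called genes and for 11249 of the genes tested. TGATNNAT was in 1 of 6 promoters of genes called higher (Trib2) and 1 of 15 of those called lower (Hoxa2), beside 3.94% of all promoters. TGACAG was in 2 of 6 (Gpr50 and Trib2) and 3 of 15 (Hoxa2, Hoxa3 and 5730596B20Rik), beside 16.2% of all. The match of Gpr50 lies after the start. A match of this length is a description of the letters and not evidence of binding. The 250 bases before the start are shown for 5 genes, 5′ to 3′ on the gene's strand, with matches in capitals, because these are the called genes with a match before the start, with Gpr50 added as the gene with the smallest p. They lie at chr6:52164832-52165081 for Hoxa2 (minus strand), chr6:52213068-52213317 for Hoxa3 (minus), chr6:52176905-52177154 for 5730596B20Rik (plus), chr12:15816786-15817035 for Trib2 (minus) and chrX:71663417-71663666 for Gpr50 (plus). Hoxa2 and Trib2 hold both motifs in this window.
Hoxa2: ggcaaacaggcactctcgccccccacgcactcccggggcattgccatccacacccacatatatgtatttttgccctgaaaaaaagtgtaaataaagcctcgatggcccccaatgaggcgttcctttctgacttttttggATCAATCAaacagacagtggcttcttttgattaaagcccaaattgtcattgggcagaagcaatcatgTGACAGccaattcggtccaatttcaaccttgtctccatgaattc
Hoxa3: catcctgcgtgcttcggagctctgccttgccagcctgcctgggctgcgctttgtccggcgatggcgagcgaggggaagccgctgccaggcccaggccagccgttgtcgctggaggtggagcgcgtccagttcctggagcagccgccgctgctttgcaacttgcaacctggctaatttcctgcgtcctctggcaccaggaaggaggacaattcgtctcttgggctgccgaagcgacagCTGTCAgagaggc
5730596B20Rik: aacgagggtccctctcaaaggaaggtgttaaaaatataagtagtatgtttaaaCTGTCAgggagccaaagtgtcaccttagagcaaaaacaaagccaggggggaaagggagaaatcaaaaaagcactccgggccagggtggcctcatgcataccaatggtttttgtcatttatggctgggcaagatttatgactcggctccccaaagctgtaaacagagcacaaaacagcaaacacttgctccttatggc
Trib2: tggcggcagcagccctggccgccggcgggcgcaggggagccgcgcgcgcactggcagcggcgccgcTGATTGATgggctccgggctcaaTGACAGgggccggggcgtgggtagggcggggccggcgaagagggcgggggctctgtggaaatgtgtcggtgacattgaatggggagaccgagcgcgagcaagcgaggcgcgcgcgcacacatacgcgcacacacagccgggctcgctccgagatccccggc
Gpr50: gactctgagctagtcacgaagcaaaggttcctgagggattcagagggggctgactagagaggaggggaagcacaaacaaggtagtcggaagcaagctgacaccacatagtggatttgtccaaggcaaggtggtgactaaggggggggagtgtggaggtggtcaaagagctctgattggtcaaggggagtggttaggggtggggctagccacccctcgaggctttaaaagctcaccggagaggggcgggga

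The first-arch genes came next, because Hoxa2 is known to hold down a first-arch programme in PA2. This list of 10 genes was drawn from reports on PA2, including the study itself. It is therefore not independent evidence of direction in PA3, whose embryos may be those of PA2. Of its 10 members 2 were called higher, 6 were higher and 0 lower at an unadjusted p under 0.05, and the median log2 fold change was 0.50, beside -0.0019 over all genes. The 6 fits without a PA3 library gave 6 or 7 higher members and medians of 0.47 to 0.56.

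Pitx1, a homeodomain factor of the mandibular arch and the hindlimb (chr13:55825051-55836192, minus strand), was at 0.956, 0.822 and 1.09 CPM in WT and at 4.75, 3.57 and 6.22 CPM in HIRE1del. It rose by 2.33 on the log2 scale (SE 0.26, adjusted p = 0.0012, edgeR), although its level stayed low, from 23 counts in the lowest library. Rspo2, a secreted activator of Wnt signalling (chr15:43020794-43170826, minus strand), rose from 13.6, 13.2 and 12.7 CPM to 16.9, 21.3 and 18.7 CPM, by 0.53 (SE 0.09, adjusted p = 0.030). Lhx8, a LIM homeodomain factor of the oral side of the first arch, missed the threshold narrowly, at 14.04, 11.3 and 12.7 CPM against 26.5, 23.8 and 21.3 CPM (log2 fold change 0.91, SE 0.17, adjusted p = 0.051). Alx4 was at 11.9 to 12.3 CPM in WT and 17.8 to 26.4 in HIRE1del (adjusted p = 0.18), and Barx1 at 30.7 to 46.9 and 48.2 to 54.1 CPM (adjusted p = 0.24). These 3 genes had their groups apart without passing the test. Lhx6, Gbx2, Six2 and Nkx3-2 had log2 fold changes between -0.41 and 0.54 and adjusted p-values of at least 0.52.

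Of the 6 genes reported as activated by Hoxa2, likewise drawn from PA2, 2 were called lower, 3 were lower at an unadjusted p under 0.05 and the median log2 fold change was -0.16. Zfp503, a zinc finger repressor (chr14:21983959-21989601, minus strand), was at 94.5, 92.0 and 109 CPM in WT and at 60.1, 65.0 and 74.1 CPM in HIRE1del, and fell by 0.57 (SE 0.09, adjusted p = 0.026, edgeR). Meox1, a homeodomain factor best known from somites (chr11:101877510-101894374, minus strand), was at 28.2, 23.2 and 26.8 CPM against 16.01, 14.3 and 15.2 CPM, and fell by 0.78 (SE 0.14, adjusted p = 0.048, edgeR). Meis1 overlapped at 231 to 277 CPM against 198 to 236 CPM. Meis2 was at 342 to 360 against 327 to 356 CPM, Fzd4 at 97.9 to 131 against 104 to 134 CPM and Zfp703 at 17.6 to 22.3 against 18.6 to 23.5 CPM. The TALE list of 9 tested genes had 0 called members and 3 lower at an unadjusted p under 0.05, among them Meis3 (log2 fold change -0.28) and Meis1 (-0.27).

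Among the other regulators of arch patterning no gene was called. The dorsoventral list of 27 tested genes, built on endothelin signalling and the Dlx genes that set the upper and lower parts of an arch, had 5 higher and 1 lower at an unadjusted p under 0.05, with a median of 0.03. Dlx6os1, a noncoding transcript of the Dlx5-Dlx6 locus, was at a mean of 31.8 CPM in WT and 49.8 in HIRE1del (log2 fold change 0.65, adjusted p = 0.086), Dlx1as at 14.1 and 21.7 CPM (0.62, adjusted p = 0.21) and Dlx6 at 14.9 and 18.6 CPM (0.32, adjusted p = 0.28). Hand2, a ventral bHLH factor, overlapped at means of 61.8 and 68.1 CPM. The crest mesenchyme list of 37 genes had 3 higher and 6 lower, with a median of -0.01. Twist1, a bHLH factor required in crest mesenchyme, was at 74.9, 84.2 and 98.2 CPM in WT and at 108, 118 and 128 CPM in HIRE1del (log2 fold change 0.46, SE 0.09, adjusted p = 0.069), and Twist2 at means of 19.7 and 26.3 CPM (0.41, adjusted p = 0.33). Tfap2b was at a mean of 23.99 CPM against 15.8 (-0.60, adjusted p = 0.12) and Foxc1 at 86.3 against 67.7 (-0.35, adjusted p = 0.24). All 4 of these had ranges apart. The count of dorsoventral genes higher was 11 without WT replicate 3, and the count of crest genes lower was 11 without HIRE1del replicate 3.

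Outside these lists, the most strongly changed gene by p was Gpr50 (chrX:71663667-71669257, plus strand), an orphan receptor related to the melatonin receptors. It was at 2.18, 2.43 and 2.54 CPM in WT and at 15.2, 12.3 and 11.2 CPM in HIRE1del, a rise of 2.43 on the log2 scale (SE 0.16, adjusted p = 1.2e-05, edgeR). It was the only called gene among 57 tested adhesion and orphan G protein-coupled receptors. Phactr3, a regulator of protein phosphatase 1 and actin (chr2:178118975-178338492, plus strand), was at 31.4, 30.3 and 26.9 CPM against 12.9, 13.8 and 13.7 CPM, and fell by 1.13 (SE 0.10, adjusted p = 2.4e-04). The most abundant Phactr gene, Phactr2, was at means of 77.1 and 79.4 CPM. Flrt1, a membrane protein that binds FGF receptors and guidance receptors (chr19:7092001-7105729, minus strand), was at 18.6, 12.54 and 13.2 CPM against 7.07, 6.82 and 7.23 CPM, and fell by 1.07 (SE 0.15, adjusted p = 0.0083), and without HIRE1del replicate 2 its adjusted p was 0.074.

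The Wnt pathway, in which secreted ligands stabilise beta-catenin through Frizzled receptors, was the signalling pathway with the most called members in the fit of all libraries. Of 67 tested genes 2 were called higher, beside 0.0556% of all genes. At an unadjusted p under 0.05, 10 were higher and 7 lower, and the median was -0.02. Without HIRE1del replicate 1 the number called was 1, and in each other fit without a PA3 library it was 0. Besides Rspo2, a secreted antagonist was called: Frzb, which binds Wnt ligands outside the cell (chr2:80411970-80447625, minus strand), was at 58.5, 56.4 and 56.2 CPM in WT and at 78.4, 80.8 and 83.2 CPM in HIRE1del, and rose by 0.50 (SE 0.08, adjusted p = 0.019, edgeR). Its 3 values lay close together in each group. Nkd2, an intracellular antagonist, was at means of 24.3 and 30.6 CPM (log2 fold change 0.33, adjusted p = 0.18) and Wnt16, a ligand, at 0.378 and 1.03 CPM (1.44, adjusted p = 0.11). By role, the 14 antagonists had a median of 0.13, the 15 receptors -0.06 and the 14 ligands -0.03. Ctnnb1, which encodes beta-catenin, was at means of 1580 and 1581 CPM. The counts fell to 6 higher and 5 lower without WT replicate 2, to 4 lower without WT replicate 3, to 6 higher without HIRE1del replicate 1 and to 2 lower without HIRE1del replicate 2.

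The other signalling pathways had 1 called gene between them. In the IGF list (17 tested) Igfbp5, a secreted IGF-binding protein (chr1:72857932-72874884, minus strand), was at 1383, 1267 and 1321 CPM in WT and at 1071, 953 and 1027 CPM in HIRE1del. It fell by 0.38 (SE 0.05, adjusted p = 0.012, edgeR), the most abundant of the 31 called genes. Irs4, an adaptor of the insulin and IGF receptors, was at means of 34.2 and 17.9 CPM (log2 fold change -0.94, adjusted p = 0.13). In the FGF list 1 gene was higher and 3 lower of 36 at an unadjusted p under 0.05, in the BMP and TGF-beta list 1 and 4 of 55, in the Hedgehog list 0 and 2 of 19, in the Notch list 0 and 3 of 25 and in the retinoic acid list 1 and 3 of 23. Their medians were -0.02, -0.09, -0.11, -0.10 and -0.04. Members lay mostly below 0 in several of these lists: 45 of 55 BMP and TGF-beta genes, 16 of 19 Hedgehog genes and 22 of 25 Notch genes had a negative log2 fold change, beside 7287 of 14383 over all genes. Over all genes the longest ones tended to be lower, as given below, and the part of gene length in these lists was not tested. Named members did not pass the test. Bmp4 was at means of 49.8 and 38.7 CPM (-0.36, adjusted p = 0.31), Gdf6 at 4.64 and 7.86 CPM (0.76, adjusted p = 0.18), Fgf5 at 2.74 and 1.27 CPM (-1.10, adjusted p = 0.26), Gli2 at 50.8 and 40.8 CPM (-0.31, adjusted p = 0.34) and Notch3 at 203 and 175 CPM (-0.22, adjusted p = 0.40). The counts of these lists moved with single libraries. The BMP list had 8 lower without WT replicate 1 and 8 without HIRE1del replicate 3, the Notch list 0 lower without WT replicate 1, the Hedgehog list 4 lower without HIRE1del replicate 3, and the FGF list 4 higher and 5 lower without WT replicate 1. The retinoic acid list had 1 lower without WT replicate 1 and 5 without HIRE1del replicate 3.

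**Figure D3:**
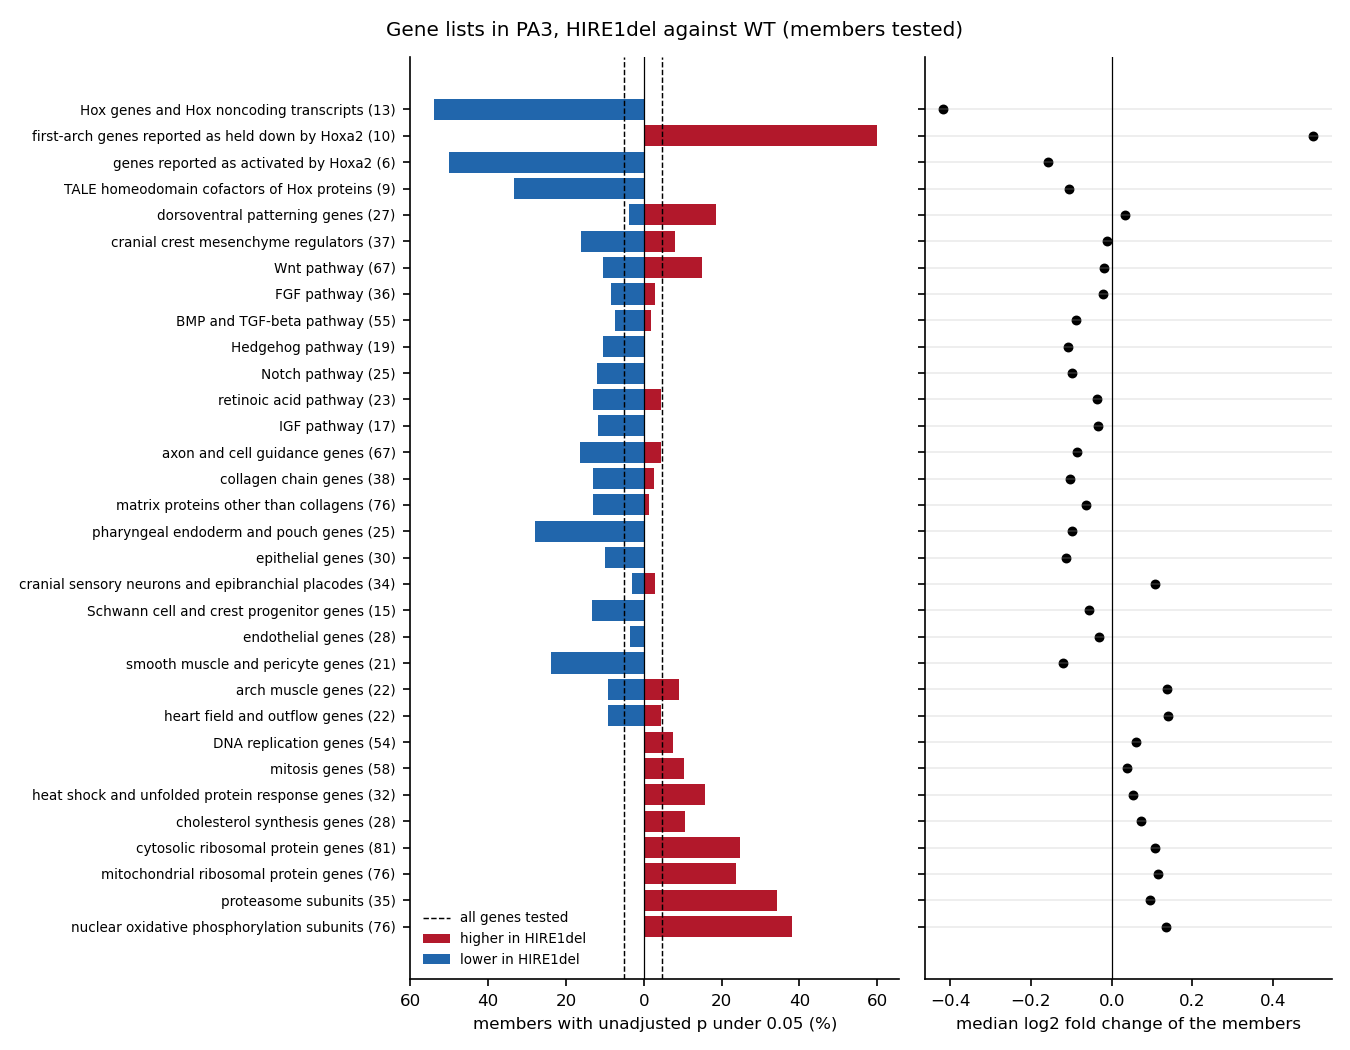
Left, share of the tested members of each list (number in brackets) with an unadjusted p under 0.05 in PA3, to the right where higher and to the left where lower in HIRE1del, with dashed lines at the 4.64% and 5.1% of all genes tested. Right, median log2 fold change of the same members, where the first-arch list lies at 0.50, the Hox list at -0.42 and the other lists shown between -0.16 and 0.14.

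Chemokine and matrix genes were next. Cxcl12, a chemokine that guides migrating cells (chr6:117168535-117181367, plus strand), was at 314, 395 and 390 CPM in WT and at 218, 245 and 294 CPM in HIRE1del, and fell by 0.54 (SE 0.10), with the highest adjusted p among the called genes (0.04996, edgeR). Its receptors Cxcr4 and Ackr3 belong to a set of 4 tested chemokine receptors of which 0 were called and 0 passed an unadjusted p of 0.05. Of 38 collagen chain genes 1 was called lower, 5 were lower and 1 higher at an unadjusted p under 0.05, and the median was -0.10. Col5a1, a chain of the fibril-forming collagen V (chr2:27886425-28039514, plus strand), was at 348, 337 and 340 CPM against 251.2, 251.3 and 262 CPM, and fell by 0.42 (SE 0.07, adjusted p = 0.032). Col1a1, the main chain of collagen I, was at 189, 206 and 230 CPM against 141, 103 and 151 CPM, apart but not past the threshold (-0.67, adjusted p = 0.26), while Col3a1 was at means of 1087 and 1064 CPM.

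Of 76 other matrix genes 10 were lower and 1 higher at an unadjusted p under 0.05, with 0 called and a median of -0.06. Adamts9, a matrix protease, was at means of 153 and 120 CPM (log2 fold change -0.35, adjusted p = 0.13), Mfap4 at 59.95 and 47.0 CPM (-0.35, adjusted p = 0.26) and Lama4 at 62.8 and 71.7 CPM (0.19, adjusted p = 0.32). Among 67 guidance genes, which steer axons and migrating cells, 11 were lower and 3 higher, with 0 called and a median of -0.09. Slit2 was at means of 137 and 115 CPM (-0.26, adjusted p = 0.26), Ephb2 at 129 and 111 CPM (-0.22, adjusted p = 0.19) and Sema5a at 70.0 and 88.9 CPM (0.34, adjusted p = 0.18). Without HIRE1del replicate 2 the lower members numbered 4 in the matrix list and 6 in the guidance list, and without HIRE1del replicate 3 the collagen list had 9 lower, but it had 3 without WT replicate 2 and 3 without HIRE1del replicate 1.

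Further called genes fell outside the lists. Tshz2, a zinc finger factor (chr2:169633013-170071816, plus strand), was at 62.5, 58.9 and 55.6 CPM in WT and at 43.4, 38.0 and 45.6 CPM in HIRE1del, and fell by 0.48 (SE 0.07, adjusted p = 0.019, edgeR). It shares 5076 exonic bases with a gene on the other strand. Ism1, a secreted protein (chr2:139678178-139758581, plus strand), fell by 0.80, from a mean of 13.98 to 8.03 CPM, Gask1b (chr3:79884533-79946280, plus strand), a Golgi-associated protein, by 0.62, from 31.4 to 20.4 CPM, and Filip1l (chr16:57353093-57573126, plus strand) by 0.45, from 63.1 to 46.1 CPM. Socs2, an inhibitor of cytokine and growth hormone signalling (chr10:95385362-95417180, minus strand), was at 47.3, 47.7 and 48.8 CPM against 35.9, 32.6 and 35.6 CPM, and fell by 0.47 (SE 0.08, adjusted p = 0.028). Trib2, a pseudokinase (chr12:15791727-15816922, minus strand), rose by 0.34, from 65.6, 66.2 and 59.1 CPM to 80.5, 86.3 and 75.3 CPM (adjusted p = 0.041).

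Calls were concentrated on chromosome 6, which carries the deletion. Within 5 Mb of the start of Hoxa2, 12 of 79 tested genes (15.2%) were called, 2 higher and 10 lower, against 17 of 13630 genes on all other chromosomes (0.125%). Without the 7 transcripts of the Hoxa cluster, 7 of the remaining 72 genes within 5 Mb (9.72%) were called and 24 had an unadjusted p under 0.05, 11 higher and 13 lower. Beyond 20 Mb on the same chromosome 1 of 520 was called, Cxcl12, and the share with an unadjusted p under 0.05 was 13.5%, beside 9.44% on the other chromosomes. Neighbouring genes of this stretch went both ways. Atp6v0e2, a proton pump subunit 3.63 Mb from Hoxa2 (chr6:48537615-48541801), was at 4.70, 4.25 and 4.09 CPM in WT and at 7.07, 8.32 and 8.20 CPM in HIRE1del, and rose by 0.86 (SE 0.12, adjusted p = 0.013, edgeR). Zfp862-ps, a pseudogene 3.66 Mb away (chr6:48504337-48534832), fell by 0.56 (SE 0.07, adjusted p = 0.0024), from 38.0, 37.8 and 40.7 CPM to 26.1, 27.6 and 25.4 CPM. Sspo (chr6:48448229-48501250), Lrrc61 (chr6:48554796-48570722) and Ccdc126 (chr6:49319274-49341582) were called lower, with log2 fold changes of -0.82, -0.47 and -0.87. Zfp786 (chr6:47819266-47830867) was called higher at 0.52, Plekha8 (chr6:54595111-54645839) lower at -0.29 and Ptcd3 (chr6:71880638-71908750), a mitochondrial translation factor 19.7 Mb away, higher at 0.28. Lrrc61 shares 892 exonic bases with Rarres2 on the other strand and Plekha8 shares 208 with Fkbp14. The line was made on 1 strain and kept on a mixed background, and an effect of the deletion and an effect of linked strain differences cannot be told apart in these data.

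**Figure D4:**
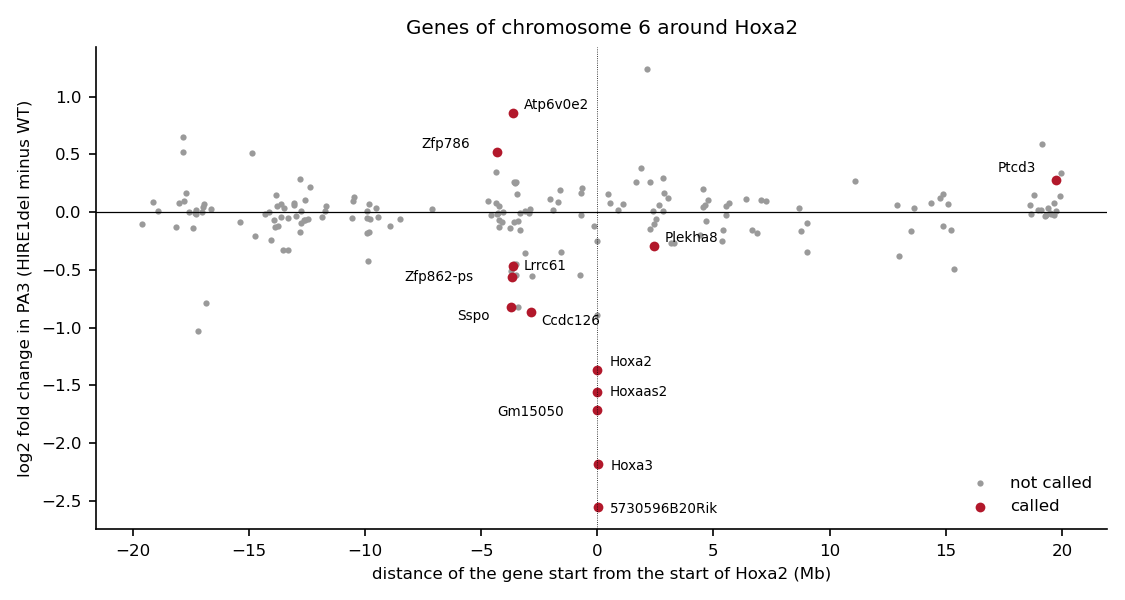
Log2 fold change in PA3 (HIRE1del minus WT) of the chromosome 6 genes that start within 20 Mb of Hoxa2, against the distance of their start from that of Hoxa2 in Mb. Red points are the 13 genes called in this window, 12 of them within 5 Mb, with the Hoxa cluster at distance 0 and both higher and lower genes near -4 Mb.

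Most genes of 4 basic programmes of growing cells had small positive log2 fold changes, and 0 of them were called. Of 76 nuclear genes for oxidative phosphorylation subunits, the respiratory chain of the mitochondrion, 74 had a positive log2 fold change, 29 were higher and 0 lower at an unadjusted p under 0.05, and the median was 0.14. The mitochondrial ribosomal protein genes had 18 higher and 0 lower of 76 (median 0.11), the cytosolic ribosomal protein genes 20 and 0 of 81 (0.11) and the proteasome subunits 12 and 0 of 35 (0.09). These shares stand beside the 4.64% of all genes that were higher. Single members moved by small amounts. Cox7a2, a subunit of complex IV, was at means of 112 and 129 CPM (log2 fold change 0.20, adjusted p = 0.26), Atp5g3, of the ATP synthase, at 189 and 215 CPM (0.19, adjusted p = 0.26), Mrpl20 at 56.8 and 65.6 CPM (0.21, adjusted p = 0.29), Rpl22l1 at 89.6 and 109 CPM (0.29, adjusted p = 0.23) and Psmd6 at 146 and 165 CPM (0.18, adjusted p = 0.34).

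The libraries did not contribute equally to these values. The summed CPM of the oxidative phosphorylation genes was 7935, 8364 and 8544 in WT against 9397, 8930 and 8628 in HIRE1del, so HIRE1del replicate 3 lay just above the WT range. For the cytosolic ribosomal proteins the sums were 26171, 27468 and 27401 in WT against 31082, 29066 and 27437 in HIRE1del, and HIRE1del replicate 3 lay inside the WT range. The number of oxidative phosphorylation genes higher was 18 without WT replicate 1 and 16 without HIRE1del replicate 1, and the median stayed between 0.09 and 0.16 over the 6 fits without a PA3 library. The cytosolic ribosomal genes had 8 higher without WT replicate 1, 9 without HIRE1del replicate 1, 12 without HIRE1del replicate 2 and 43 without replicate 3 of HIRE1del. The mitochondrial ribosomal genes had 10, 12, 9 and 30 in the same fits and the proteasome 5, 9, 3 and 21, with 7 without WT replicate 3.

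Gene length moved with these values. With the tested genes divided by exonic length into 4 groups of equal size, the median log2 fold change was 0.04 in the shortest group, 0.00162 and -0.01 in the middle groups and -0.02 in the longest, with 7.45, 5.01, 3.84 and 2.25% of genes higher and 2.86, 4.67, 6.15 and 6.70% lower at an unadjusted p under 0.05. The shortest group held 17.9, 19.4 and 19.2% of the CPM in WT and 20.7, 19.02 and 19.5% in HIRE1del. Within that group, the 181 members of the 4 lists had a median of 0.12 with 28.2% higher and 0% lower, and the other 3415 genes a median of 0.03 with 6.35% higher and 3.02% lower. The part of length in these values, and in those of the other lists, was not tested further.

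**Figure D5:**
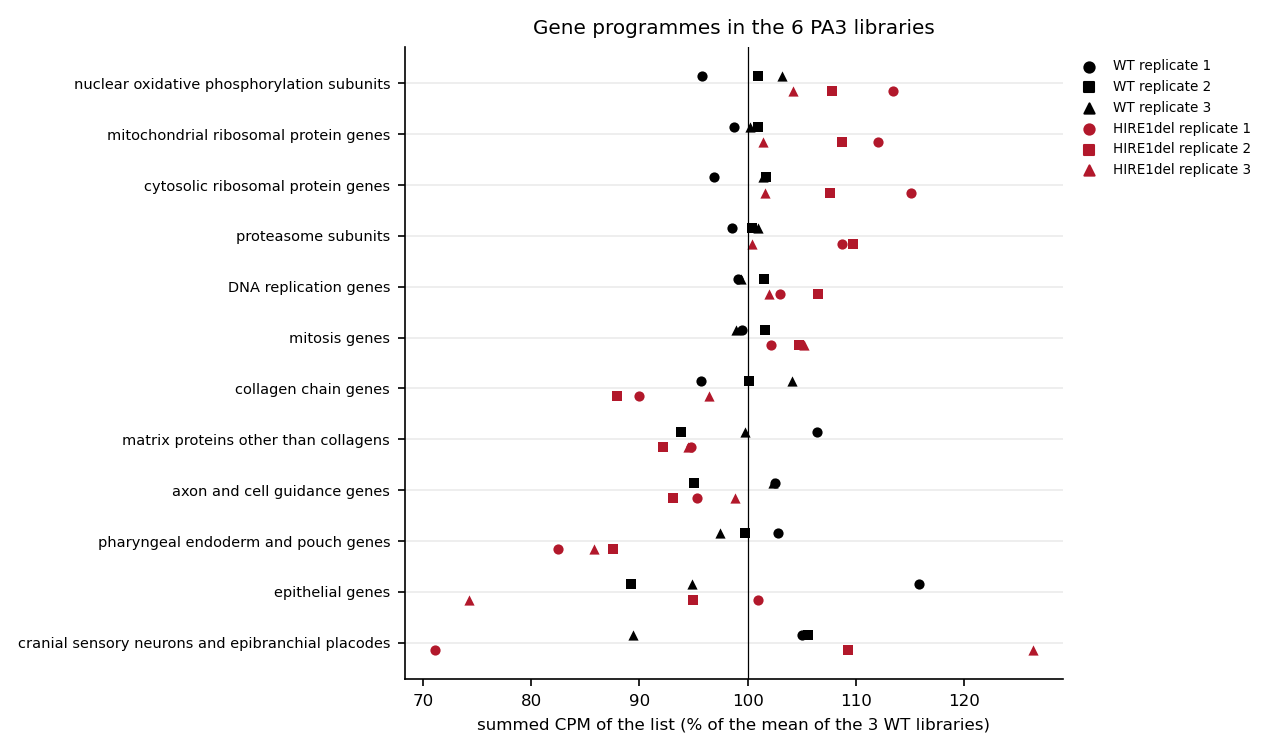
Summed CPM of 12 gene lists in each PA3 library as a percentage of the mean of the 3 WT libraries, with WT in black, HIRE1del in red and the marker shape giving the replicate number. For the 4 growth lists at the top HIRE1del replicates 1 and 2 lie above all WT libraries and replicate 3 close to them, while neuronal and epithelial sums scatter widely within both genotypes.

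Cell cycle genes were close to their WT level. Of 54 DNA replication genes 4 were higher and 0 lower at an unadjusted p under 0.05 (median 0.06), and of 58 mitosis genes 6 and 0 (median 0.04), with 0 called. The summed CPM of the mitosis genes was 13815, 14112 and 13743 in WT against 14192, 14556 and 14613 in HIRE1del, apart by a narrow margin. Top2a, a topoisomerase of dividing cells, was at means of 1236 and 1295 CPM and Ncapd2, a condensin subunit, at 546 and 686 CPM (log2 fold change 0.33, adjusted p = 0.34). Over the 6 fits without a PA3 library the higher members numbered 2 to 7 and 1 to 6. The p53 and apoptosis list had 1 higher and 2 lower of 31. Bmf, a pro-apoptotic protein, was at 105, 99.2 and 106 CPM against 90.9, 82.1 and 85.8 CPM (-0.26, SE 0.05, adjusted p = 0.061). In the heat shock and unfolded protein list 5 of 32 were higher, and 1 to 8 in those fits.

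The third pouch was examined because it forms the thymus and the parathyroids. Of 25 tested endoderm and pouch genes 1 was called lower (Cxcl12, which the crest mesenchyme also expresses), 7 were lower and 0 higher at an unadjusted p under 0.05, and the median was -0.10. The summed CPM of the list was 1065, 1033 and 1009 in WT against 854, 907 and 889 in HIRE1del. Cxcl12 alone made up 314, 395 and 390 CPM of these sums in WT and 218, 245 and 294 CPM in HIRE1del. Without Cxcl12 the sums of the genotypes overlap. Il7, a cytokine for lymphocytes made by thymic epithelium, was at 3.21, 1.93 and 1.96 CPM against 0.599, 0.874 and 1.32 CPM (log2 fold change -1.33, adjusted p = 0.27). Casr, the calcium-sensing receptor of the parathyroid, was at 4.93, 5.82 and 4.54 CPM against 2.81, 2.80 and 2.47 CPM (-0.92, adjusted p = 0.29), and Foxa2, an endodermal factor, at 4.97, 4.54 and 4.57 CPM against 3.37, 3.25 and 2.19 CPM (-0.68, adjusted p = 0.28). All 3 had ranges apart and none passed the test. Pax9 and Eya1, regulators of the pouch, overlapped at means of 43.6 and 40.7 CPM and of 149 and 142 CPM. Tbx1 was at 5.66, 2.43 and 6.27 CPM against 1.42, 2.27 and 2.68 CPM. The 6 endoderm markers and 8 epithelial markers moved beside these genes as given above, with overlapping sums, and their part was not tested.

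In the smooth muscle and pericyte list 5 of 21 genes were lower and 0 higher at an unadjusted p under 0.05, with 0 called and a median of -0.12. Smtn, a smooth muscle cytoskeletal protein, was at means of 44.9 and 38.2 CPM (log2 fold change -0.23, adjusted p = 0.26), Lmod1 at 4.82 and 3.21 CPM (-0.59, adjusted p = 0.27) and Myl9 at 57.7 and 48.4 CPM (-0.26, adjusted p = 0.36). The fits without a PA3 library gave 5 or 6 lower members. Endothelial genes had 1 of 28 lower and 0 higher, macrophage genes 0 of 15 in either direction and red cell genes 0 of 15.

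Neuronal, muscle and heart genes differed between libraries of the same genotype. The summed CPM of the sensory neuron list was 692, 696 and 589 in WT against 469, 720 and 833 in HIRE1del, and the count higher at an unadjusted p under 0.05, 1 of 34 in all libraries, was 13 without HIRE1del replicate 1. Gap43, a growth cone protein, was at means of 28.1 and 42.3 CPM with ranges apart (log2 fold change 0.59, adjusted p = 0.21). The heart list had 1 higher and 2 lower of 22, and 8 higher without HIRE1del replicate 2, where Myl7, an atrial myosin light chain, was at 1.01 CPM against 10.9 and 11.4 CPM in the other HIRE1del libraries. Ttn, the giant sarcomere protein, was at 42.3, 25.04 and 84.4 CPM in WT and at 136, 11.1 and 139 CPM in HIRE1del. In Schwann cell genes 2 of 15 were lower, with Sox10, a factor of crest progenitors and glia, at 10.3, 8.002 and 7.98 CPM against 3.18, 3.53 and 7.61 CPM (-0.87, adjusted p = 0.41). The lower Schwann cell genes numbered 0 without WT replicate 1, 0 without HIRE1del replicate 2 and 4 without HIRE1del replicate 3.

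Among gene families, clustered protocadherins gave many small p-values that are not separate measurements. All 22 tested Pcdhg genes were lower at an unadjusted p under 0.05, with log2 fold changes between -0.13 and -0.10. Of 14 tested Pcdha genes 8 were higher and 0 lower, with log2 fold changes between 0.54 and 0.77, and of 10 Pcdhb genes 0 passed an unadjusted p of 0.05. In the whole cadherin list of 70 genes 12 were higher and 25 lower. The lower members numbered 12 without WT replicate 1, 7 without WT replicate 3, 10 without HIRE1del replicate 1 and 6 without HIRE1del replicate 2, and the higher ones ranged from 1 to 17 over the 6 fits. In the Pcdha and Pcdhg clusters the variable first exons are spliced to shared constant exons, so counts over whole genes hold mostly the same reads. Outside the protocadherins, 24 of 372 tested genes on chromosome 18, where these clusters lie, were higher and 18 lower. Of 361 Zfp zinc finger genes 8 were higher and 11 lower, with 1 called in each direction (Zfp786 and Zfp503). Zfp786 lies on chromosome 6, 4.33 Mb from Hoxa2. Of 213 solute carriers 4 were higher and 17 lower, of 57 potassium channels 1 and 2 and of 34 forkhead genes 0 and 6. Over all genes 4.64% were higher and 5.1% lower, and 0.0556% and 0.16% were called. The Zfp counts at an unadjusted p under 0.05 lie below both of the first 2 shares. Kcnh2, a cardiac potassium channel, was at means of 24.4 and 16.4 CPM (log2 fold change -0.57, adjusted p = 0.11). Without WT replicate 1 the Zfp genes had 5 higher and 6 lower, without HIRE1del replicate 2 they had 5 higher, and without HIRE1del replicate 3 they had 4 higher. Without HIRE1del replicate 3 the potassium channels had 7 lower, and over the 6 fits the forkhead genes had 4 to 7 lower. The solute carriers had 8 lower without WT replicate 1, 11 without WT replicate 2 and 7 without HIRE1del replicate 2.

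The 10 genes with the smallest p-values beyond the called ones had adjusted p-values between 0.051 and 0.069, and all had ranges apart. Besides Lhx8, Twist1 and Bmf they were Slco3a1, a transporter (log2 fold change -0.52), Spry3, of the Sprouty family (-0.98), Scube1, a secreted protein that can modulate Hedgehog and BMP signals (-0.55), Cited1, a transcriptional coactivator (0.68), Noc3l, of the nucleolus (0.22), Carmil1, an actin regulator (-0.32), and Lix1 (0.45). At an adjusted p under 0.1 the count of genes was 46, 14 of them higher. Some larger differences did not pass the test: 72 genes that were not called differed by at least 1 on the log2 scale, and of the 16 among them with an average of at least 2 log2 CPM 8 had ranges apart. Lars2, chosen after its values were seen, was at 32.2, 28.0 and 27.8 CPM against 98.9, 128 and 84.6 CPM (adjusted p = 0.58). In PA2 its HIRE1del libraries spread widely (SD 437 CPM around a mean of 274), and in a fit of the PA3 libraries alone its adjusted p was 0.0013 (edgeR).

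The change in PA3 differed from that in PA2 for 7 of 14383 genes (0.0487%) by the genotype-by-arch interaction term of the same model, and 2 of these were among the 31 genes called in PA3. Hoxa2 fell by 1.36 in PA3 and by 3.74 in PA2, where WT held a mean of 78.3 CPM and HIRE1del 5.87 CPM (interaction 2.37, SE 0.16, adjusted p = 1.6e-05, edgeR). Hoxaas2 fell by 1.56 in PA3 and by 5.67 in PA2 (interaction 4.11, SE 0.30, adjusted p = 2.9e-05). For the other 29 the smallest adjusted p of the interaction was 0.41. It was 0.073 with an assumed embryo pool, the PA2 and PA3 libraries of 1 genotype and replicate number, as a block. That fit called 26 interaction genes in place of 7, with Hoxa2 and Hoxaas2 again the 2 among the 31. A p that misses the threshold does not show that the arches respond alike. Pitx1 rose by 2.33 in PA3 and by 3.64 in PA2, and Gpr50 by 2.43 and 1.40. Frzb, at means of 101 and 103 CPM in PA2, had a log2 fold change of 0.50 in PA3 and 0.03 in PA2 (interaction adjusted p = 0.42), and Socs2 of -0.47 and -0.05 (0.69). Phactr3 and Flrt1 were low in PA2, at WT means of 3.56 and 2.50 CPM against 29.5 and 14.8 CPM in PA3, with log2 fold changes there of -0.43 and -0.18 (interaction adjusted p = 0.48 and 0.57). PA2 and PA3 libraries of 1 genotype and replicate number had correlations of deviations between 0.24 and 0.55. A pair of different genotypes, PA2 WT replicate 3 and PA3 HIRE1del replicate 3, reached 0.42, so these values do not establish shared embryo pools. The 2 comparisons may still not rest on separate animals.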

How the data were processed

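Values are counts of sequenced fragments per gene that the authors deposited in 1 table for both genotypes. According to the study's methods, RNA of hand-dissected arches was sequenced as paired ends, aligned with splicing to mm10 (GRCm38) and counted over exons of UCSC known genes in 1 orientation, although the kit named does not mark strand. All 12 columns of PA2 and PA3 were used and 0 were left out. Rows without a gene symbol, at most 0.0199% of the counts, went through the same filter and tests as the others.

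Of 24594 genes, 14383 reached 1 CPM in 2 or more of the libraries and were tested with edgeR 4.0.16 (R 4.3.3) by the quasi-likelihood test with TMM scaling and 1 mean per genotype and arch (8 residual degrees of freedom), and p-values were adjusted by Benjamini-Hochberg over all genes. Genes with an adjusted p under 0.05 are termed called. The 6 PA3 libraries held 25.81 to 30.78 M counts, so that 3 counts correspond to 0.0975 to 0.116 CPM. PA3 was simulated with 200 of 14383 genes changed: 84.5% were called at a log2 change of 1 and 97% at 2. False calls made up 3.98 and 6.28% of the calls. Of the 31 genes called in the data 9 changed by at least 1, so these rates do not cover the smaller changes. Each gene and library was drawn independently, so differences that many genes of a library share, such as those of sex, were not simulated. Replicates of 1 group differed by more than sampling noise (chi-square per degree of freedom 12.4 to 20.0 in PA3). The labels call the 3 replicates of a group independent. The study states in general that embryos of different sexes were pooled, but WT replicate 1 held little Y-linked RNA, as given above.

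Genes were named if called, if among the 10 next smallest p-values, or if among the up to 4 members of a list with the smallest unadjusted p under 0.05 or its most abundant member. The Hox, first-arch and Hoxa2-activated lists were described beyond this rule, some of their members are not reported here, and Afp, Apob, Cubn and Lars2 were chosen after their values were seen. The lists and comparisons were chosen with earlier results of these data known, and their members were counted without a test of the list. The symbols of the histone list were updated after the data were seen. Positions and promoters came from GRCm38 annotations. Alternatives were DESeq2 1.42.0, limma-voom (limma 3.58.1), other scalings and filters, the PA3 libraries alone, Y-linked level as a covariate, a replicate block and leaving out each library.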

Additional observations from a re-analysis of the deposited data

Results flagged for a closer look

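For 7 genes the effect of the deletion in PA3 differed from that in PA2 by the interaction term of the edgeR quasi-likelihood model (PA3 minus PA2, log2 scale, Benjamini-Hochberg adjusted), and in all 7 the value was positive. Hoxa2 had an interaction of 2.37 (adjusted p = 1.6e-05) and Hoxaas2 of 4.11 (adjusted p = 2.9e-05), and both fell in PA3 as well. The other 5 genes were not called in PA3. Meis2, a TALE cofactor of Hox proteins, had a log2 fold change of -0.04 in PA3 and -0.67 in PA2 (interaction 0.62, adjusted p = 0.0015). Its PA3 means were 349 CPM in WT and 339 CPM in HIRE1del, beside 450.3 and 284 CPM in PA2. Fzd4, a Wnt receptor, had 0.09 and -0.88 (interaction 0.97, adjusted p = 0.022), and Mecom, a zinc finger factor, -0.05 and -0.79 (interaction 0.74, adjusted p = 0.022). Sox8, an SRY-box factor of crest cells, had -0.06 and -1.20 (interaction 1.15, adjusted p = 0.021), and Cntfr, the receptor of ciliary neurotrophic factor, -0.30 and -1.19 (interaction 0.89, adjusted p = 0.041). Meis2 and Fzd4 are on the list of genes reported as activated by Hoxa2, which was drawn from PA2.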

How the results depend on the processing

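The 31 genes called in PA3 became 94 with DESeq2 (41 higher) and stayed between 21 and 46 under other scalings, filters, thresholds and covariates, but 15 of the 31 were among the 21 called with the PA3 libraries alone, 21 among the 26 with the Y-linked covariate and 13 among the 24 with the block in PA3 alone. Leaving out 1 PA3 library gave 8 to 28, and leaving out 1 PA2 library, an alternative added after seeing the data, gave 15 to 34. Over the alternatives of the single called genes, 349 values kept their side of the threshold, 146 did not and 0 changed sign, and 12 of 1040 list medians moved by more than the spread between replicates. Replicate numbers did not pair the genotypes within PA3 (correlations of deviations 0.03, -0.15 and 0.21), and the fit with the replicate number as a block called 54 genes, 20 higher, including all 31. The 7 interaction genes became 29 with DESeq2 (25 positive), 12 with the replicate block and 26 with the assumed embryo pool as a block, and 3 to 12 without 1 library. The 12 called genes within 5 Mb of Hoxa2 became 5 within 1 Mb and 13 within 20 Mb. The causes were not tested. Counts of 3 or fewer in a library limit the lowest genes.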

Other observations

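Among the larger differences that did not pass the edgeR test fitted on both arches, all chosen after their values were seen, several genes had the genotypes apart. Nup43, of the nuclear pore, was at 4.25, 3.57 and 3.86 CPM in WT and at 11.8, 10.0 and 8.48 CPM in HIRE1del (log2 fold change 1.37, adjusted p = 0.11, edgeR), with adjusted p-values between 7.5e-04 (DESeq2) and 0.37 over the alternatives, 0.015 with the PA3 libraries alone. Tmem132e was at 18.9, 13.6 and 12.9 CPM against 5.61, 8.60 and 7.44 CPM (-1.06, adjusted p = 0.11, and 0.0018 with DESeq2 to 0.41 over the alternatives). Prr15 was at 5.74, 3.25 and 4.50 CPM against 12.3, 12.2 and 7.37 CPM (1.24, adjusted p = 0.12, and 0.0020 with DESeq2 to 0.39), and Bcl2l13 at 7.23, 8.72 and 3.64 CPM against 13.2, 16.01 and 18.8 CPM (1.30, adjusted p = 0.30, and 0.14 to 0.67). Prr15 and Bcl2l13 lie on chromosome 6, 2.16 and 68.7 Mb from Hoxa2, where the deletion and linked strain differences cannot be told apart. Bcl2l13 shares 628 exonic bases with Bid on the other strand, whose log2 fold change was 1.16.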
